A study of Mus musculus with 21 samples.

Results

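Mouse embryonic fibroblasts with floxed Rtel1 alleles that carried RTEL1 C1252A/C1255A were compared after Ad-Cre (+Cre) and Ad-GFP (+GFP) adenovirus infection, to ask which transcripts change when endogenous Rtel1 is deleted in cells that hold the mutant protein. The comparison held the 3 +Cre and the 3 +GFP libraries whose labels name Rtel1 F/F cells with RTEL1 CA, 6 of 21 libraries in the series, and paired libraries of the same replicate number. All 6 libraries came from Rtel1 F/F cells with the mutant, collected 96 h after infection, and they differ by virus. The mutant was delivered by a retroviral vector. It bears cysteine-to-alanine changes in the zinc-binding motif through which RTEL1 meets the telomere protein TRF2. The series also holds Rtel1 F/F cells without the vector (+GFP, +Cre, and +GFP with TMPyP4, a ligand that stabilises G-quadruplexes) and Terf1 F/F cells (+GFP, +Cre). The Rtel1 F/F and Terf1 F/F pairs of +GFP and +Cre groups have their own control libraries and are used here for comparison. Within the mutant line, deletion of Rtel1 and the presence of Cre cannot be told apart, and Rtel1 F/F cells given a vector with wild-type RTEL1 were not analysed here.

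RTEL1 is a DNA helicase that unwinds telomere loops and G-quadruplexes and removes recombination intermediates. It is brought to telomeres by TRF2 in S phase and to replication forks by PCNA, and its loss is known for telomere loss and stalled replication. In fibroblasts, damaged telomeres and stalled forks are known to activate p53, which raises cell cycle inhibitors such as Cdkn1a.

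The 6 libraries held 38108060 to 51938593 counts each, and 13719 of 24454 genes passed the filter on low counts. Of 12 fibroblast markers, 11 were above 1 TPM, a length-scaled level, the exception being Thy1, and the summed level of the list was 7150 to 7733 TPM in +Cre and 7359 to 8097 TPM in +GFP libraries. Markers of endothelium, skeletal muscle and erythroid cells summed to at most 0.45 TPM in any of the 6 libraries. Macrophage markers summed to 11.5 to 13.6 TPM in +Cre and 9.71 to 11.4 TPM in +GFP libraries, with Cd14 and Cd68 above 1 TPM and the other 6 markers below it. Epithelial markers summed to 3.50 to 3.87 TPM in +Cre and 2.22 to 2.51 TPM in +GFP libraries, with Krt18 alone above 1 TPM. Neural and glial markers summed to 20.8 to 26.5 TPM in +Cre and 25.4 to 31.9 TPM in +GFP libraries, with Sox2 called lower, chondrocyte markers to 7.40 to 11.4 and 8.03 to 10.7 TPM, and adipocyte markers to 2.28 to 3.16 TPM in all 6. The part of these in any result was not tested. Replicate numbers differed more than the viruses did, with 69.7% of the variance on the first principal component, which separated the replicate numbers, and 15.0% on the second, which separated +Cre from +GFP. As an example, Col1a1, a fibrillar collagen chain, was 673 TPM in the first +GFP library and 229 and 328 TPM in the others, and 564 against 170 and 221 TPM in the +Cre libraries.

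Rtel1 itself was lower in every +Cre library, although the gene did not pass the threshold. Its level was 338, 328 and 331 CPM (counts scaled to library size) in +GFP and 283, 253 and 257 CPM in +Cre, with no overlap. The log2 fold change was -0.33 (SE 0.08, adjusted p = 0.0204 by the quasi-likelihood test of edgeR, Benjamini-Hochberg adjusted, against a threshold of 0.01). In Rtel1 F/F cells without the vector, Rtel1 was 61.8 ± 3.83 CPM in +GFP and 29.5 ± 2.56 CPM in +Cre (SD, n = 3), a log2 fold change of -1.07. The effect of Cre differed between the lines by 0.74 on the log2 scale (adjusted p = 5.73e-05). The gene count adds transcripts of the vector to those of the floxed alleles, which it cannot separate. Terf1, floxed in the other line, was 33.1 to 33.8 CPM in +Cre and 33.3 to 36.9 CPM in +GFP libraries of the mutant line and was not called.

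Deletion of Rtel1 in the presence of the mutant was followed by a small set of changes, nearly even in direction in the fit over 21 libraries. Of 13719 genes, 203 were called (1.48%), 97 higher (0.707%) and 106 lower (0.773%), with absolute log2 fold changes of 0.23 to 1.82. All 203 had the same sign in all 3 pairs, and in 201 the +Cre and +GFP libraries did not overlap. The 203 were selected by a test on these same libraries, so this is no separate support. Among all genes 9.04% lay entirely higher and 7.15% entirely lower in +Cre. The median log2 fold change of all genes was 0.00. With the pair of replicate 1, 2 or 3 left out, 52, 49 and 50 genes were called, and 32 of the 203 (9 higher, 23 lower) were called in each of these fits. With only the 6 libraries and the pairing, 1214 genes were called (528 higher, 686 lower), and DESeq2 called 400 (160 higher, 240 lower). With only the 6 libraries and no pairing 0 were called by edgeR, with 1256 genes at an unadjusted p under 0.05.

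**Figure D1:**
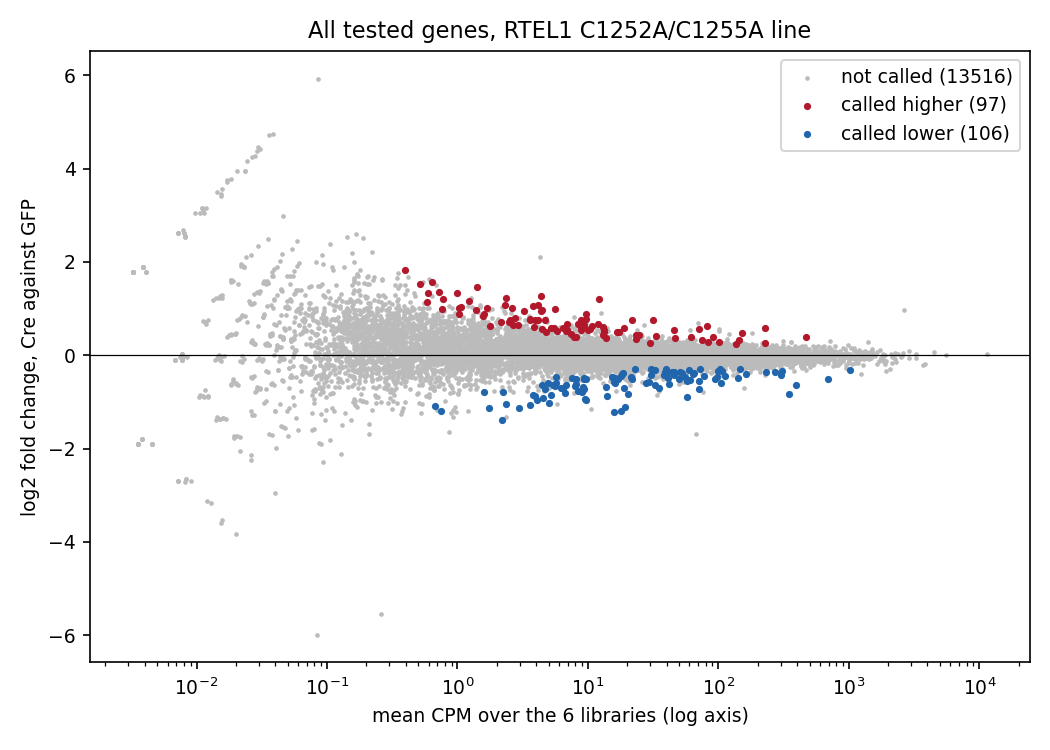
Log2 fold change of +Cre against +GFP in the RTEL1 C1252A/C1255A line (vertical) against the mean CPM over the 6 libraries (horizontal, log axis), 1 point a gene. The 97 genes called higher (red) and 106 called lower (blue) spread on both sides of 0 among 13719 genes tested.

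The genes that rose most among those with at least 5 CPM included a chemokine, an interferon-induced gene and the p53 targets Perp and Eda2r, described with their lists. Ccl5, a chemokine that attracts T cells and monocytes, was 9.17, 4.80 and 8.15 CPM in +GFP and 16.2, 17.5 and 16.6 CPM in +Cre, a log2 fold change of 1.21 (SE 0.16, adjusted p = 0.000557). Every +Cre library lay above every +GFP library, and the second +GFP library was the lowest. The fit of only the 6 libraries with pairing gave an adjusted p of 0.0505 for Ccl5. Fam212b, which encodes an inhibitor of the kinase PAK4, rose by 0.89, and Zhx1, a zinc finger and homeobox repressor, by 0.75 on the log2 scale. Serpinb9b, of a serpin family that inhibits granzymes, rose by 0.68, and its call was lost without replicate 2. Creg1 (0.78), Ociad2 (0.68), Nipsnap1 (0.67), Ptgr2 (0.67) and 9030617O03Rik (0.70) also rose on this scale. Creg1, Ociad2 and Ptgr2 lost their calls when any pair was left out, Nipsnap1 without replicate 1 or 3, and 9030617O03Rik kept its call.

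Among called genes with at least 5 CPM, the largest falls included genes of cell adhesion, matrix and growth signalling. Below that level, Cables1 (mean 2.19 CPM) had the largest fall of any called gene, by 1.38 on the log2 scale. Cdh13, which encodes the cadherin that is anchored in the membrane by lipid, fell from 22.98, 21.8 and 22.4 CPM to 9.45, 9.57 and 9.67 CPM, a log2 fold change of -1.23 (SE 0.10, adjusted p = 3.59e-06). Kirrel3, an adhesion molecule of the immunoglobulin superfamily, fell from 30.5, 19.6 and 25.2 CPM to 12.4, 9.84 and 10.4 CPM, and by 1.19 on the log2 scale. In both genes the groups did not overlap. Pard3b, a cell polarity gene, fell by 0.96, Prss35, a protease-like secreted protein, by 1.03, Cacna1c, the pore subunit of an L-type calcium channel, by 0.83, and Trib2, a pseudokinase, by 0.82 on the log2 scale. Gas1, a surface co-receptor of Hedgehog signalling first known from growth-arrested fibroblasts, was 75.6, 77.1 and 71.8 CPM in +GFP and 37.2, 45.3 and 38.2 CPM in +Cre, and fell by 0.90 on the log2 scale (adjusted p = 3.23e-06). Fbn2 (fibrillin 2, -1.11), Fzd1 (a Wnt receptor, -0.93), Mme (a membrane peptidase, -0.88) and Igf1 (a growth factor, -0.86) fell too, with log2 fold changes given. Fbn2, Fzd1, Mme, Igf1 and Trib2 lost their calls with any pair left out, at adjusted p of at most 0.203 over all alternatives. Of the 24 largest rises and falls at 5 CPM or more, 12 kept their call whichever pair was left out, and 22 kept it without the pairing.

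**Figure D2:**
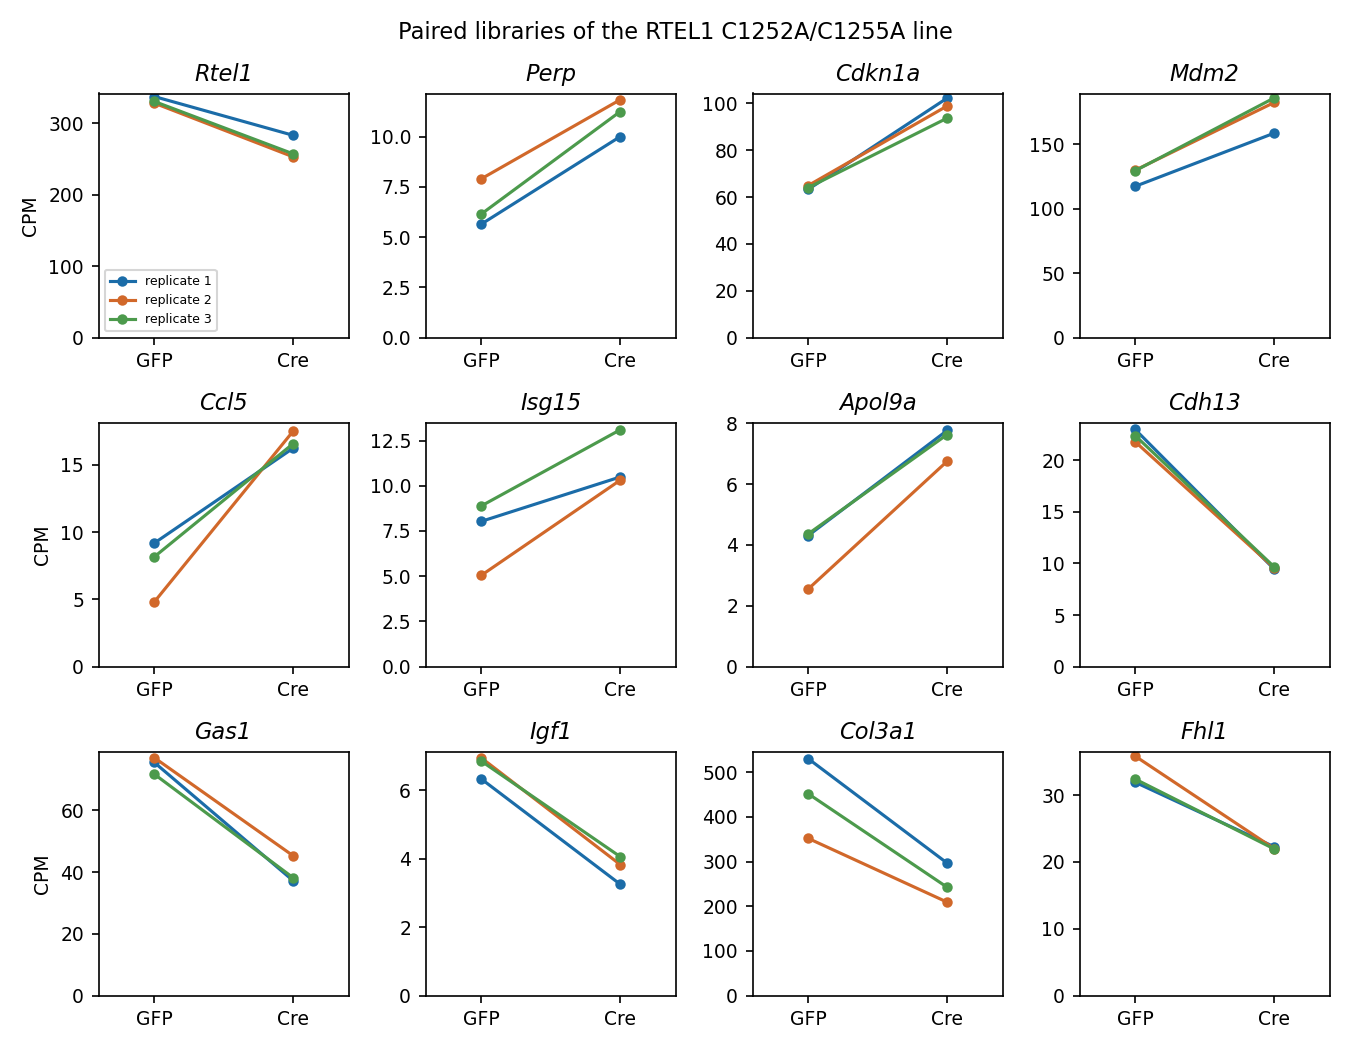
CPM of 12 genes in the +GFP and +Cre libraries of each replicate number in the RTEL1 C1252A/C1255A line, joined by lines, with each axis starting at 0. Every line falls for Rtel1, Cdh13, Gas1, Igf1, Col3a1 and Fhl1 and rises for Perp, Cdkn1a, Mdm2, Ccl5, Isg15 and Apol9a.

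Some targets of p53 rose and none fell. This list and those below were chosen with earlier results of these data known. Their counts beside the share of all genes are descriptions and not tests. Of 28 tested targets, 5 rose, beside 0.707% of all genes, and 23 did not pass. The median log2 fold change was 0.17 beside 0.00 over all genes, and 18 were higher in all 3 pairs, beside 26.1% of all genes. Cdkn1a, the inhibitor of cyclin-dependent kinases that p53 induces, was 63.3, 64.9 and 64.0 CPM in +GFP and 102, 98.9 and 93.7 CPM in +Cre, a log2 fold change of 0.62 (SE 0.06, adjusted p = 1.14e-05). The +Cre libraries were all above the +GFP libraries, and Cdkn1a kept its call with any pair left out. Mdm2, the ubiquitin ligase that limits p53, was 117, 130 and 129 CPM in +GFP and 159, 182 and 186 CPM in +Cre, and rose by 0.48 on the log2 scale. Ccng1, a cyclin that p53 induces, rose by 0.58, Eda2r, a death receptor of the TNF receptor family, by 0.75, and Perp, a membrane protein of cell junctions, by 0.76 on the log2 scale. Without replicate 1, 2 or 3 the number of p53 targets called higher was 2, 3 and 2, and it was 5 without the pairing. Perp lost its call whichever pair was left out, and Eda2r without replicate 1 or 3. Trp53inp1, a further p53 target, had a log2 fold change of 0.64 and an adjusted p of 0.0117, above the threshold.

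The start-site window of Cdkn1a holds a match to the consensus p53 element, 2 half-sites of 10 bases separated by up to 13 bases, printed here because the gene rose. RefSeq windows of 300 bases (250 before to 50 after a start site, GRCm38.p6) were found for 10830 of the tested genes. Such an element stood in 6 of 13806 windows (0.0435%), in 1 of 104 windows of genes that rose and in 1 of 29 windows of the listed p53 targets. In the last 2 sets the match was that of Cdkn1a. The bases below precede an upstream start site of Cdkn1a at chr17:29090876-29090967, plus strand, with the half-sites in capitals.
Cdkn1a: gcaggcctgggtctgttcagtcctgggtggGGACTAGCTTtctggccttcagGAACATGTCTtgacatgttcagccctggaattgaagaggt
This match is 73 to 42 bases before that start site and says nothing about binding. The 10 bases that follow the second half-site fit the half-site pattern except at their first base. The search therefore left them in lower case, and which half-sites p53 uses was not tested.

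Among interferon-stimulated genes, 4 of 45 tested rose, beside 0.707% of all genes, none fell and 41 did not pass. The median log2 fold change of the list was 0.27. Apol9a, an apolipoprotein L family gene induced by interferon, was 4.31, 2.55 and 4.36 CPM in +GFP and 7.76, 6.75 and 7.63 CPM in +Cre, a log2 fold change of 1.00 (SE 0.12, adjusted p = 0.000106). Its near copy Apol9b rose by 0.97 on the log2 scale, and reads shared between the copies could have been split between them. Isg15, a ubiquitin-like protein, was 8.03, 5.05 and 8.88 CPM in +GFP and 10.5, 10.3 and 13.1 CPM in +Cre, a log2 fold change of 0.64 (adjusted p = 0.00933). The +Cre libraries did not overlap the +GFP libraries in either gene, and the second +GFP library was the lowest in both. Oasl1, a member of the oligoadenylate synthetase-like family, rose by 0.75 on the log2 scale. Oasl1 and Isg15 lost their calls without the pairing (adjusted p = 0.0286 and 0.0496), where 2 genes of the list were called. Without replicate 1, 2 or 3, 2, 1 and 1 of the list were called, and Apol9a kept its call in each case.

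The interferon-stimulated response element, searched as GAAANNGAAA on both strands, stood in 61.5% of 39 windows of this list, in 3.03% of all 13806 windows, in 5.77% of windows of genes that rose and in 6.06% of those of genes that fell. The windows of Isg15 and Apol9a are printed because both genes rose, with the matches in capitals. For Oasl1, which also rose and was searched, no match was found. Overlapping matches on either strand run together, and in Apol9a they lie on the opposite strand. The stretches are chr4:156200845-156200926 (minus strand, Isg15) and chr15:77411094-77411169 (minus strand, Apol9a), both of GRCm38.p6 from RefSeq.
Isg15: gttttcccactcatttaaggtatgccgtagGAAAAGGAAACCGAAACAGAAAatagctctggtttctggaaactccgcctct
Apol9a: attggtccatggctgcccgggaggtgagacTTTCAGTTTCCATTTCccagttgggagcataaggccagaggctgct
A match is a description of these letters, not of a bound site.

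Chemokines and cytokines had 3 of 26 genes that rose, beside 0.707% of all genes, and none that fell, with a median log2 fold change of 0.41. Besides Ccl5 these were Ccl9, a chemokine (0.61), and Csf1, the growth factor of macrophages (0.38, 404, 392 and 429 CPM in +GFP and 533, 517 and 544 CPM in +Cre). The libraries of Ccl9 overlapped, and its adjusted p without the pairing was 0.0198. Ccl9 and Csf1 lost their calls whichever pair was left out. None of 15 genes of MHC class I presentation and none of 16 cytosolic nucleic acid sensors passed in the edgeR fit over 21 libraries. Their median log2 fold changes were 0.36 and 0.19. In that fit 4 and 7 had an unadjusted p under 0.05, beside 16.5% of all genes, and DESeq2 called H2-K1 and Ifih1 higher. With only the 6 libraries and pairing, edgeR called 4 and 3 of them higher. H2-K1, a class I heavy chain, was 65.4, 41.6 and 51.8 CPM in +GFP and 101, 71.3 and 83.4 CPM in +Cre, with an adjusted p of 0.0233. Ifih1, the sensor MDA5, was 7.21, 4.80 and 6.76 CPM in +GFP and 8.997, 9.99 and 9.25 CPM in +Cre, with an adjusted p of 0.0149. In both genes every +Cre library was above its +GFP partner.

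In the fit over all 21 libraries, no gene of telomere maintenance or replication passed. None of 19 genes of shelterin, CST and telomerase (median log2 fold change 0.00), of 30 G-quadruplex and R-loop helicases and nucleases (-0.03), of 41 genes of homologous recombination, the Fanconi pathway and checkpoints (0.02) or of 50 DNA replication genes (-0.05) was called by edgeR in this fit. At an unadjusted p under 0.05 there were 1, 5, 0 and 7, beside 16.5% of all genes, and DESeq2 called Rtel1, Lig1, Pola2 and Pole lower. The edgeR fit of only the 6 libraries with pairing called 1 of the first list lower, 2 of the second lower, 0 of the third, and 1 higher and 3 lower of the replication genes. Brip1, a helicase of the Fanconi pathway, was 37.5, 41.5 and 38.3 CPM in +GFP and 32.5, 34.4 and 32.6 CPM in +Cre (adjusted p = 0.0787), and Pole, the catalytic subunit of leading strand polymerase, had a log2 fold change of -0.27 (adjusted p = 0.0276). Of 35 mitotic genes 1 rose, beside 0.707% of all genes. This was Ccnb2, a mitotic cyclin, which rose by 0.28 on the log2 scale. Of 24 cell cycle inhibitors and senescence genes 2 rose, Cdkn1a and Ccne1, the G1/S cyclin, which was 20.004, 22.5 and 20.1 CPM in +GFP and 26.1, 30.5 and 28.0 CPM in +Cre (log2 fold change 0.44). Ccnb2 and Ccne1 lost their calls whichever pair was left out.

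More of the listed adhesion and matrix genes fell than rose, beside 0.773% of all genes that fell and 0.707% that rose. These lists too were chosen with earlier results known, so the counts are no separate support. Of 23 cadherin and Kirrel genes 3 fell, Cdh13, Kirrel3 and Cdh3. None of 18 genes of the immunoglobulin-superfamily adhesion list, which does not hold Kirrel3, passed in the edgeR fit over 21 libraries. Of these, 6 had an unadjusted p under 0.05, beside 16.5% of all genes, and DESeq2 called Jam3 higher. Of 35 axon guidance genes 2 fell, Slit3 (-1.06) and Sema3c (-0.61), with log2 fold changes given. Sema3c, a secreted guidance cue, was 48.4, 54.8 and 48.6 CPM in +GFP and 32.7, 35.1 and 31.3 CPM in +Cre, with no overlap. Of 31 collagen chains 2 rose and 2 fell. Col3a1, the fibrillar collagen III chain, fell from 530, 352 and 452 CPM to 297, 209 and 242 CPM, by 0.83 on the log2 scale (adjusted p = 0.000158), and Col8a2 fell by 0.97. Col4a5, a basement membrane collagen chain, rose by 0.29 and Col10a1 by 0.75. Of 47 proteoglycans and matrix glycoproteins 4 fell (Fbn2, Postn, Lama2 and Fbln5) and 1 rose, Npnt, an integrin ligand, by 0.57 on the log2 scale. None of 38 matrix proteases and inhibitors was called in the edgeR fit over 21 libraries (median log2 fold change -0.17). Of these, 13 had an unadjusted p under 0.05, beside 16.5% of all genes. DESeq2 called 5 lower, among them Lox, which cross-links collagen, and Timp3, a metalloprotease inhibitor. With only the 6 libraries and pairing, edgeR called 7 of the 38 lower, and 4 lower and 1 higher of the immunoglobulin-superfamily list. Slit3, Cdh3, Col8a2, Col10a1, Col4a5, Postn and Lama2 lost their calls whichever pair was left out, and Npnt did without replicate 1. Without the pairing the adjusted p was 0.0352 for Slit3, 0.0105 for Cdh3, 0.0103 for Col8a2 and 0.0126 for Postn and Lama2.

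Some genes of signalling lists fell and none rose, beside 0.773% of all genes that fell. Of 41 Wnt genes 4 fell, among them Fzd1, the co-receptor Ror1 (-0.59), the agonist Rspo2 (-0.64) and the secreted Dkk3 (-0.48), which was 112, 116 and 114 CPM in +GFP and 79.9, 84.0 and 81.6 CPM in +Cre. Of 41 BMP and TGF-beta genes 3 fell, Inhbb (-0.65), Tgfb3 (-0.57) and Fstl1 (-0.31), and of 17 genes of the IGF system 2 fell, Igf1 and Pappa, a protease of IGF-binding proteins (-0.85), on the log2 scale. Spry1, a feedback inhibitor of receptor tyrosine kinases, was the 1 of 42 FGF, PDGF and VEGF genes that fell. Gas1 was the 1 of 21 Notch and Hedgehog genes that fell. Of 24 SRF and contractile genes 3 fell, Itga8 (-0.69), Fhl1 (-0.59) and Acta2 (-0.51), the smooth muscle actin of contractile fibroblasts, which was 755, 852 and 854 CPM in +GFP and 589, 585 and 547 CPM in +Cre. Of 23 YAP and TAZ targets 1 fell, Rbms3 (-0.68). Dkk3, Gas1, Fhl1 and Rbms3 kept their calls whichever pair was left out. Fzd1, Ror1, Rspo2, Inhbb, Fstl1, Igf1, Spry1 and Itga8 lost theirs in each of these fits, Tgfb3 and Acta2 without replicate 2 or 3, and Pappa without replicate 2. Without the pairing Inhbb, Ror1 and Spry1 did not pass (adjusted p = 0.0168, 0.0112 and 0.0129).

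Members of the mesenchymal transcription factor and imprinted gene lists fell and none rose, beside 0.773% of all genes that fell. Of 51 mesenchymal transcription factors 5 fell, with a median log2 fold change of -0.26, and 35 were lower in all 3 pairs, beside 24.7% of all genes. They were Ebf1 (-0.78), Foxd1 (-0.46), Foxp1 (-0.45), Runx2 (-0.39) and Tcf4 (-0.35). Ebf1, Foxp1, Runx2 and Tcf4 each span 300 kb or more, a class in which 9.09% of tested genes fell. The part of gene span in these falls was not tested. Ebf1, which guides adipose and stromal lineages, was 10.7, 10.7 and 10.3 CPM in +GFP and 6.17, 6.31 and 6.08 CPM in +Cre. Of 17 imprinted growth genes 2 fell, with a median of -0.48, and 14 were lower in all 3 pairs. Grb10, an adaptor that restrains insulin receptor signalling, was 497, 483 and 460 CPM in +GFP and 340, 306 and 277 CPM in +Cre (log2 fold change -0.65, adjusted p = 7.30e-05), and Peg10 fell by 0.60 on the log2 scale. The +GFP libraries of both genes were all above the +Cre libraries. Ebf1 and Grb10 kept their calls whichever pair was left out. Foxd1, Runx2 and Peg10 lost theirs in each of these fits and Foxp1 without replicate 1 or 3, and without the pairing Foxd1 and Peg10 did not pass (adjusted p = 0.0279 and 0.0184).

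**Figure D3:**
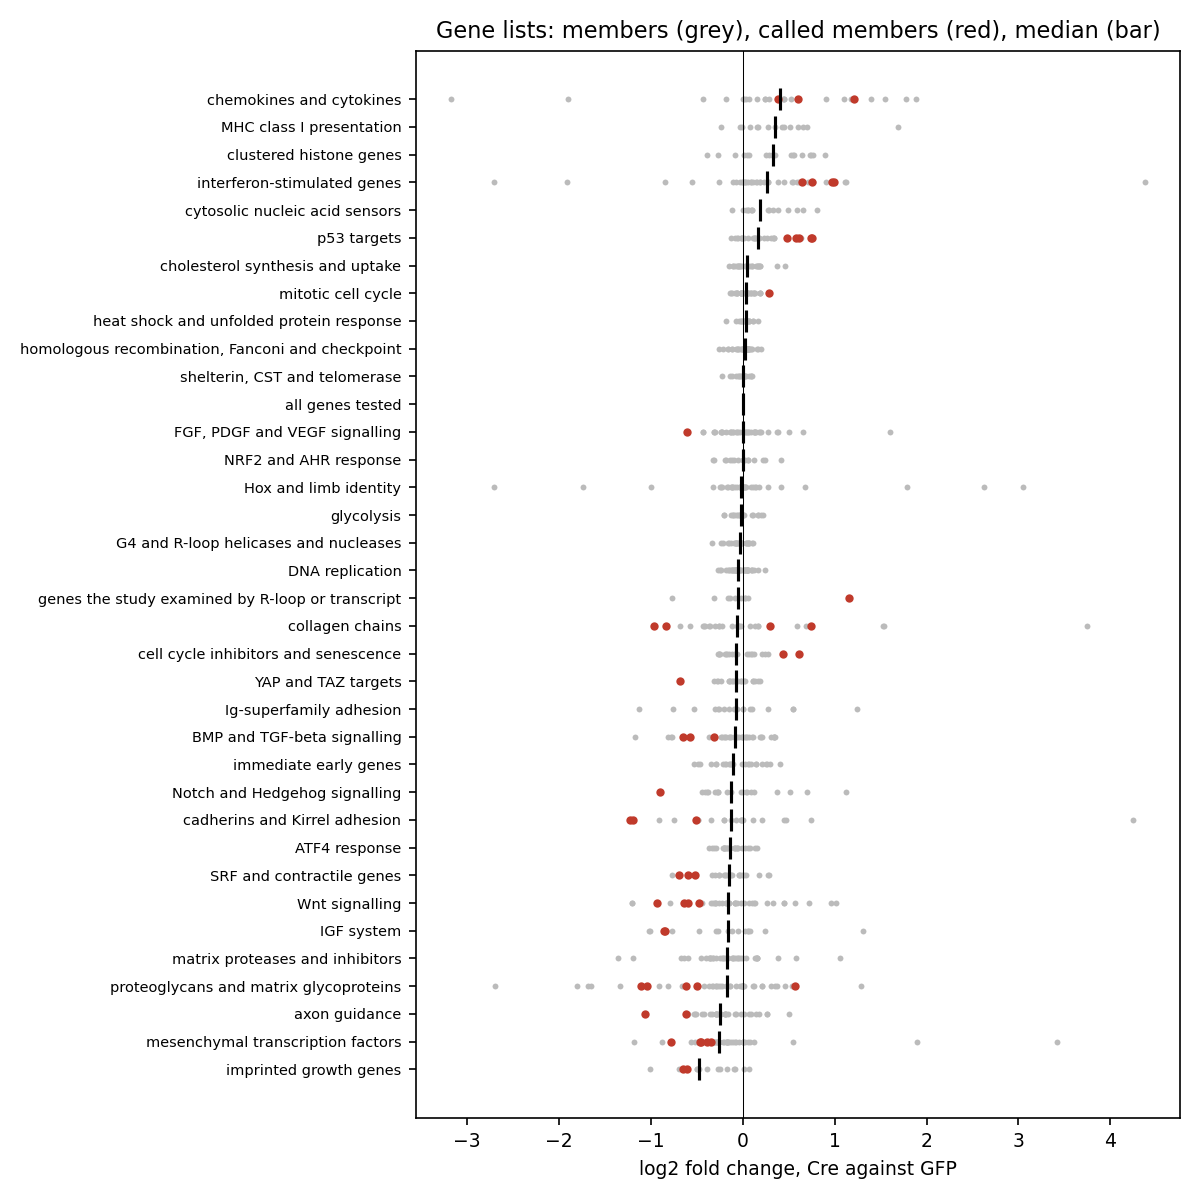
Log2 fold change of +Cre against +GFP in the RTEL1 C1252A/C1255A line for each member of the gene lists (grey points), with called members in red and the list's median as a black bar. Medians run from -0.48 for imprinted growth genes to 0.41 for chemokines and cytokines, and over all genes tested the median is 0.00.

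Genes that fell spanned more of the genome than those that rose. Their median genomic span was 145 kb, against 22.3 kb for genes that rose and 23.2 kb for all genes tested. Of 363 genes that span 300 kb or more, 33 fell (9.09%, beside 0.773% of all genes) and 0 rose by edgeR or DESeq2. At an unadjusted p under 0.05, 16 of these were higher, beside 16.5% of all genes in either direction. Of 1455 genes of 100 to 300 kb, 29 fell (1.99%) and 10 rose, and of 3540 genes under 10 kb, 13 fell (0.367%) and 25 rose. The median log2 fold change of the longest class was -0.19 (-0.14, -0.20 and -0.22 in pairs 1, 2 and 3). These genes had a median level of 4.69 CPM, beside 12.8 CPM for genes under 10 kb, and the part of expression level and GC content in the result was not tested beyond the GC correction, under which 37 of the longest class fell. Without replicate 1, 2 or 3 the number was 12, 15 and 11, and it was 25 without the pairing. It was 94 with only the 6 libraries and pairing, 0 with these and no pairing, and 55 with DESeq2. Among the longest that fell were Cdh13, Kirrel3, Pard3b, Cacna1c, Ptprm (a receptor phosphatase, -0.71), Prkg1 (a cyclic GMP-dependent kinase, -1.13) and Dlg2 (a synaptic scaffold, -1.14). Slit3, Lama2, Ror1, Rbms3, Ebf1, Foxp1, Runx2 and Tcf4, named above with their lists, were in this class too. The falls in those lists and in this class therefore share genes. In Rtel1 F/F cells the longest class had a median of -0.43, and in Terf1 F/F cells of 0.02.

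**Figure D4:**
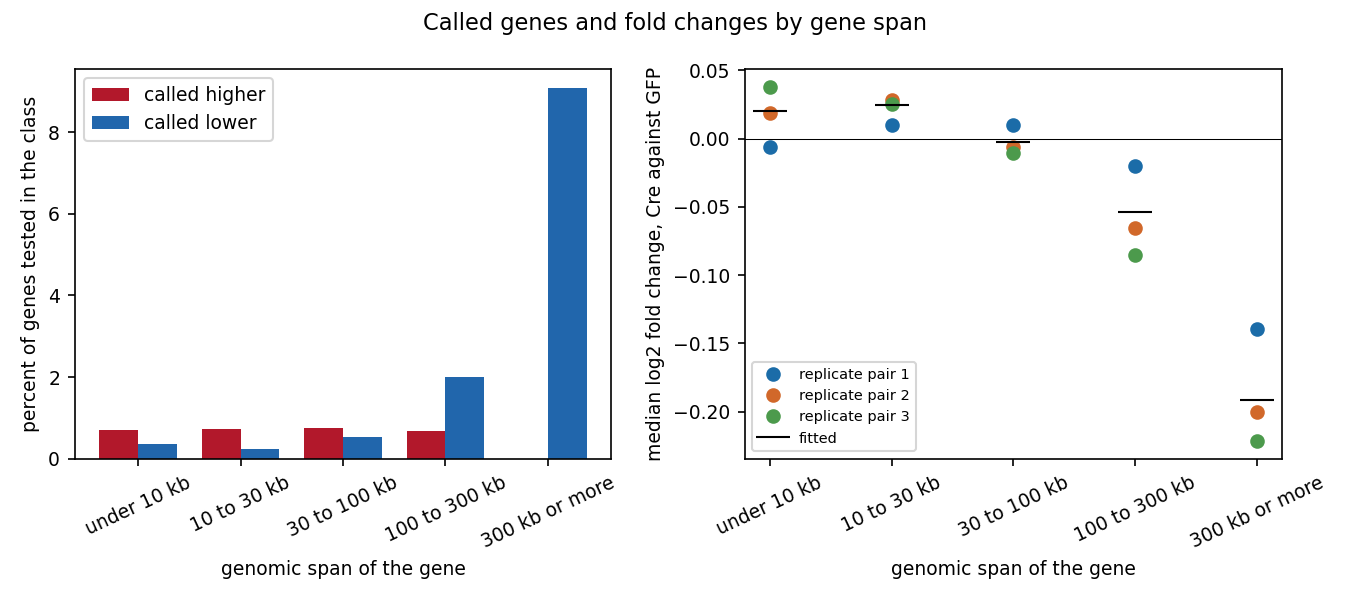
Percent of tested genes called higher or lower (left) and median log2 fold change, fitted and in each replicate pair (right), for classes of genomic span in the RTEL1 C1252A/C1255A line. The share that fell is 9.09% at 300 kb or more, where the fitted median is -0.19.

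The same virus changed far more genes in Rtel1 F/F cells without the vector, 6555 (47.8%; 23.8% higher and 24% lower), and 581 (4.24%; 3.11% higher and 1.12% lower) in Terf1 F/F cells. Of the 203 genes called in the mutant line, 152 (74.9%) were called in the same direction in Rtel1 F/F cells, 97 of the 106 that fell and 55 of the 97 that rose. A further 13 were called in the opposite direction and 38 were not called. The genes that fell had a median log2 fold change of -0.56 in the mutant line, -1.07 in Rtel1 F/F cells and -0.13 in Terf1 F/F cells, and those that rose 0.65, 0.47 and 0.30. The effect of Cre differed between the mutant and Rtel1 F/F lines for 4092 genes (29.8%) and between the mutant and Terf1 F/F lines for 113 (0.824%). Among the 203 genes, 122 differed from Rtel1 F/F cells, 87 with the same sign and a smaller change in the mutant line, 7 with a larger one and 28 with the opposite sign. The lines also differed before Cre. The +GFP libraries of the 2 lines did not overlap for 116 of these 122 genes (95.1%). This held for 167 of the 203 (82.3%) and for 63.6% of all genes, so a difference in fold change can reflect either level.

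**Figure D5:**
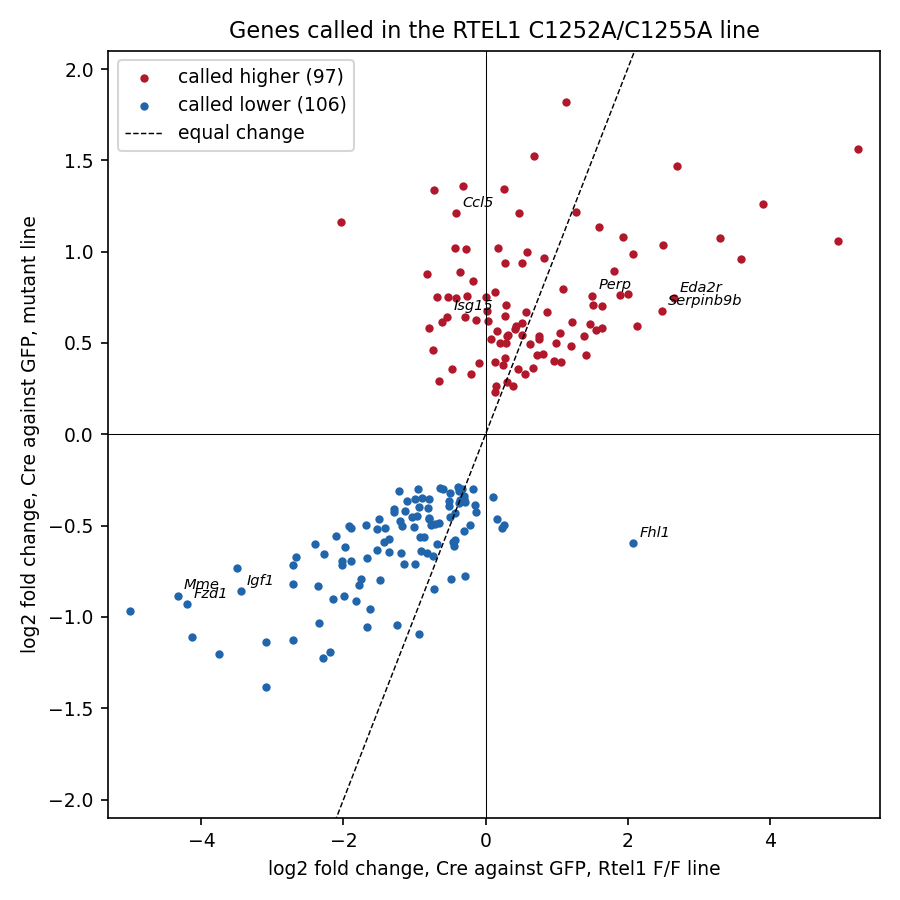
Log2 fold change of +Cre against +GFP in the RTEL1 C1252A/C1255A line (vertical) against that in Rtel1 F/F cells (horizontal), for the 203 genes called in the mutant line, with a dashed line of equal change (the axes differ in scale). Fhl1 lies alone at the right below 0, and Mme, Fzd1 and Igf1 lie far to the left.

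Mme, Fzd1, Fbn2, Igf1 and Olfml3 had smaller falls in the mutant line than in Rtel1 F/F cells, and their +GFP levels were lower there. Fzd1 was 12.4 ± 0.757 CPM in +GFP and 6.51 ± 0.50 CPM in +Cre of the mutant line, and 116 ± 36.8 and 6.31 ± 0.635 CPM in Rtel1 F/F cells (SD, n = 3). Mme was 18.1 ± 0.947 and 9.85 ± 1.00 CPM, and 109 ± 23.6 and 5.40 ± 0.348 CPM in Rtel1 F/F cells. The +GFP means in the mutant line and in Rtel1 F/F cells were 26.0 and 209 CPM for Fbn2, 6.71 and 79.4 CPM for Igf1, and 11.2 and 69.99 CPM for Olfml3. The log2 fold changes of Mme were -0.88 and -4.33, and the difference between the lines was 3.45 (adjusted p = 1.04e-07). Fhl1, a LIM-domain protein of muscle and contractile cells, fell from 31.9, 35.8 and 32.4 CPM to 22.3, 22.0 and 21.9 CPM in the mutant line and rose by 2.08 on the log2 scale in Rtel1 F/F cells, from 4.82 ± 0.473 to 20.3 ± 1.71 CPM. Eda2r, Serpinb9b, Anxa8 and Ccng1 rose less than in Rtel1 F/F cells, where their log2 fold changes were 2.65, 2.48, 2.14 and 1.64. Their +GFP means were 16.2, 9.24, 4.38 and 183 CPM in the mutant line and 4.23, 2.59, 2.40 and 86.4 CPM in Rtel1 F/F cells. Isg15 rose by 0.64 in the mutant line against -0.54 in Rtel1 F/F cells, and Ccl5 by 1.21 against -0.41. The change of Ccl5 in Rtel1 F/F cells was not called (edgeR adjusted p = 0.0280). In +GFP, Isg15 was 7.32 ± 2.02 CPM in the mutant line and 24.96 ± 3.05 CPM in Rtel1 F/F cells, and Ccl5 was 7.38 ± 2.29 and 58.7 ± 4.40 CPM. Their differences were 1.19 (adjusted p = 6.97e-05) and 1.62 (adjusted p = 3.90e-05). In Terf1 F/F cells Isg15 and Ccl5 rose by 0.87 and 2.20 on the log2 scale. Of the 45 interferon-stimulated genes tested, 30 were called lower and 2 higher in Rtel1 F/F cells (median log2 fold change -1.05). In Terf1 F/F cells 43 of them were called higher and 0 lower (median 1.35). Adam22, a disintegrin-like membrane protein, rose from 0.861, 0.651 and 0.708 CPM to 1.39, 2.01 and 1.67 CPM in the mutant line (log2 fold change 1.16) and had a log2 fold change of -2.04 in Rtel1 F/F cells. Its call was lost whichever pair was left out.

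In all 3 lines 36 genes were called in the same direction, 23 higher and 13 lower. The p53 targets Cdkn1a, Mdm2, Ccng1, Perp and Eda2r were among those higher, with Ccne1, Apol9a, Apol9b and Abcb1b, a drug efflux pump. Those lower included Gas1, Grb10, Fbxl7, Tenm3, Lpar1, a receptor of lysophosphatidic acid, and Ndrg1. DESeq2 gave 60 such genes. Of the 203 genes, 32 were called in the mutant line alone, 25 higher and 7 lower. A call in 1 line alone is not a tested difference. The effect of Cre differed from that in both other lines for 15 of the 203 genes. Among these 15, only Cd59a (log2 fold change 0.89) was called in neither other line.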

How the data were processed

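RNA sequencing was performed in 21 libraries of mouse embryonic fibroblasts. The authors trimmed reads (cutadapt 1.9.1), aligned them (STAR 2.5.2a) and estimated gene expression (RSEM 1.3.0, mm10 RefSeq), and deposited expected counts, all whole numbers, beside TPM values used here for marker levels. The labels name biological replicates, and the paper states independent experiments for its data in general; how these cultures were separated is not given, so p-values measure the spread between these samples.

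Counts were analysed with edgeR 4.0.16 in R 4.3.3: TMM, filterByExpr, robust quasi-likelihood fit over 21 libraries with 7 group coefficients and a replicate block in the mutant line, Benjamini-Hochberg adjustment over 13719 genes, two-sided, with a threshold of 0.01 on adjusted p. Same-numbered libraries deviated together (correlations 0.86, 0.84 and 0.42), which pairs them. SE is the log2 fold change over the root of F. Named genes were the 12 largest rises and falls at 5 CPM or more, called list members and the 5 largest differences each way. Members and lists were chosen with earlier results of these data known. The script was tested on simulated data. Alternatives included DESeq2 1.42.0, GC correction and leaving out each pair. Symbols matched RefSeq for 23362 genes, 975 more by synonym, and 117 had none.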

Additional observations from a re-analysis of the deposited data

Results flagged for a closer look

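The effect of Cre differed between the RTEL1 C1252A/C1255A line and Rtel1 F/F cells for 31 named genes (edgeR's test of the difference, adjusted p of at most 0.01). Values are mutant line minus Rtel1 F/F line, on the log2 scale. They compare the effects of Cre and not the levels, which also differed between the lines in +GFP, and the count of Rtel1 holds vector transcripts. The effect was lower in the mutant line for Fhl1 (-2.67), Eda2r (-1.90), Serpinb9b (-1.81), Anxa8 (-1.54), Ccng1 (-1.06), 9030617O03Rik (-0.94), Fam212b (-0.92), Acta2 (-0.75) and Perp (-0.74). The effect was higher there for Pard3b (0.66), Ociad2 (0.66), Rtel1 (0.74), Zhx1 (0.75), Col4a5 (0.94), Cacna1c (0.96), Kirrel3 (1.00), Cdh13 (1.06), Col10a1 (1.17), Isg15 (1.19), Gas1 (1.25), Oasl1 (1.28), Prss35 (1.32), Col3a1 (1.52), Ccl5 (1.62), Trib2 (1.88), Olfml3 (2.00), Igf1 (2.59), Fbn2 (3.03), Adam22 (3.20), Fzd1 (3.27) and Mme (3.45). A further 18 named and called genes also differed with the same sign in both lines, 17 of them changing less in the mutant line.

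The effect also differed from that in Terf1 F/F cells for a smaller group, mutant line minus Terf1 F/F line, on the log2 scale. The differences were Inhbb (-1.64), Oasl1 (-1.53), Cdh13 (-1.31), Ror1 (-1.24), Pappa (-1.23), Peg10 (-1.07), Pard3b (-1.04), Rspo2 (-0.98), Prss35 (-0.91), Sema3c (-0.90), Lama2 (-0.86), Fhl1 (-0.57) and Nipsnap1 (0.72). Inhbb fell by 0.65 in the mutant line and rose by 0.99 in Terf1 F/F cells.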

How the results depend on the processing

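All 203 calls kept their sign in every fit that tested them, and none reversed. These fits reuse the libraries that gave the calls, so the kept signs are no separate support. Without the replicate block 150 genes were called, 146 of them among the 203. The count was 1214 with only the 6 libraries and the block, 0 without it (1256 at an unadjusted p under 0.05), 400 with DESeq2, 335 with GC correction, 545 at an adjusted p of at most 0.05, 31 with an absolute log2 fold change of at least 1, and 49 to 52 without 1 replicate number. The fits without 1 replicate number hold fewer libraries of the line, and the part of this in their smaller counts was not tested. The difference from Rtel1 F/F cells held 1299 genes with an absolute log2 fold change of at least 1, against 4092. The difference from Terf1 F/F cells held 113 genes, 233 with DESeq2, 243 at 0.05, 30 at an absolute log2 fold change of at least 1, 183 with GC correction and 22 to 44 without 1 replicate number. Rtel1 passed with only the 6 libraries and the block (log2 fold change -0.33), with DESeq2 (-0.34) and at 0.05 (-0.33). Genes called the same way in 3 lines were 36, and 60 with DESeq2. The cause of these shifts was not tested. Depth limits genes of a few CPM. Recounts of p53 targets, interferon-stimulated genes, genes of 300 kb or more and lists without a call were chosen after seeing the data.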

Other observations

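In the RTEL1 C1252A/C1255A line, none of 26 genes of cholesterol synthesis and uptake (median log2 fold change 0.05), 25 of the ATF4 response (-0.14), 17 of the NRF2 and AHR response (0.00), 21 of heat shock and the unfolded protein response (0.04), 23 of glycolysis (-0.02), 26 immediate early genes (-0.11) or 36 Hox and limb identity genes (-0.01) was called by edgeR in the fit over 21 libraries. At an unadjusted p under 0.05 there were 3, 4, 4, 1, 1, 4 and 4 of them in that order, beside 16.5% of all genes, and DESeq2 called Cyp1b1, of the AHR response, lower. With only the 6 libraries and pairing, edgeR called 1 cholesterol gene higher, 4 ATF4 genes lower, 2 NRF2 and AHR genes higher and 2 lower, 1 heat shock gene lower, 0 of glycolysis, 2 immediate early genes higher and 5 lower, and 2 Hox genes lower. Abca1, the cholesterol exporter, was 21.5, 21.8 and 16.6 CPM in +GFP and 30.4, 26.0 and 25.4 CPM in +Cre, with an adjusted p of 0.0427. None of 19 clustered histone genes was called by edgeR over 21 libraries (median log2 fold change 0.33), 4 had an unadjusted p under 0.05, DESeq2 called Hist1h2bc higher, and 3 were called higher with only the 6 libraries and pairing. Hist1h2bc was 97.0, 81.9 and 67.5 CPM in +GFP and 136, 107 and 118 CPM in +Cre, with an adjusted p of 0.0228. Of 10 genes the study examined by R-loop or transcript, Adam22 alone was called, beside 1.48% of all genes in either direction. Adam22 rose at a mean of 1.22 CPM and lost its call whichever pair was left out.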
